A study of Mus musculus with 137 samples.

Results

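Lung libraries of old mice taken 14 days after bleomycin (6 libraries) were compared with those taken 14 days after saline (6 libraries). These 12 libraries, called lungs below, are 8.76% of all libraries of the series and were picked by the treatment, day and age in their labels. The mice were C57BL/6J males of 21 months with no engineered allele named, and all had been instilled through a cannula into the airway, so that the saline group shares the handling. The bleomycin group received bleomycin sulphate at 0.63 mg/kg. A piece of frozen lung was homogenised, so each library mixes every cell type of the organ with any blood and attached tissue. Nothing in the labels states how many animals were pooled or whether libraries of a group came from separate animals, so p-values are over libraries. The spread behind them was estimated over all libraries of the series. The question was what the fibrosing old lung expresses at this time, and 3 other sets served for comparison. They were young mice of 8 to 12 weeks at day 14 (5 with bleomycin at 0.7 mg/kg, 5 with saline), old mice at day 21 (6 and 6) and old mice left untreated (5), the numbers being libraries.

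Bleomycin is a glycopeptide antibiotic that breaks DNA strands. Instilled into the airway, it kills epithelial cells of the alveolar wall, and inflammation is followed by a fibrosis in which fibroblasts lay down collagen while surviving alveolar type 2 cells, the surfactant makers, replace the flat type 1 cells. Monocytes enter the lung in this phase and become macrophages that take up debris and signal to fibroblasts. The enzyme bleomycin hydrolase inactivates the drug, and the lung is known to hold little of it.

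Values below are CPM, the reads of a gene per 1000000 reads counted in genes with the authors' counts scaled between libraries by TMM, given as the lowest to the highest of the 6 libraries with the median. Log2 differences are bleomycin minus saline with their standard error, from edgeR's quasi-likelihood test over all libraries of the series. A gene rose or fell here only where its Benjamini-Hochberg adjusted p over 18396 genes was under 0.05. The saline libraries held 18.7 to 23.6 M reads counted in genes (M for mega) and the bleomycin libraries 21.1 to 26.4 M. Transcripts that define lung were abundant in every library, among them Sftpc, the surfactant protein of type 2 cells, at 10854 to 14705 CPM (median 12072) in saline and 6953 to 36335 CPM (median 13029) in bleomycin lungs.

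Some libraries stood apart before any test. Bleomycin replicate 6 had a median correlation of 0.959 with the others of its group, against 0.974 to 0.983 for the rest, and its 10 most abundant genes took 10.1% of its reads, against 4.97 to 5.90% in the other bleomycin lungs. Its genes of the shortest 25% by exon length (up to 2227 bases) lay a median 0.46 log2 units above the other bleomycin lungs, and those of the longest 25% (from 6139 bases) 0.38 below. Smaller shifts with length were seen in the other bleomycin lungs. For the shortest genes replicates 1, 3 and 5 were at −0.17 to −0.19 and replicates 2 and 4 at 0.14 and 0.10, against −0.055 to 0.036 in saline lungs. Bleomycin replicate 3 carried far more blood RNA, and replicates 3 and 5 carried skeletal muscle RNA. Saline replicate 3 was the lowest saline lung for airway, heart muscle and fat genes. Counts within gene groups are given with and without a library where leaving it out moved a count of at least 3 genes by over 1.5 times.

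Of 18396 genes tested, 5383 (29.3%) rose with bleomycin and 4869 (26.5%) fell. The change was over 2-fold for 992 of the higher and 933 of the lower genes. All 6 bleomycin lungs lay above all 6 saline lungs for 2029 genes (11%) and below them for 1511 (8.21%). These shares are the background for the counts within gene groups below, where a gene can belong to several groups. With the 12 libraries fitted alone, 3833 genes rose and 3234 fell, and no gene was called in opposite directions by both fits.

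The 15 largest rises among genes with an average log2 CPM over 1 and no overlap between the groups began with Grem1, Chl1 and Cemip. Grem1 (ENSMUSG00000074934, chromosome 2, 113746164 to 113758646), a secreted antagonist of bone morphogenetic proteins, ran from 0.277 to 1.06 CPM (median 0.934) in saline and from 6.01 to 50.4 CPM (median 20.7) in bleomycin lungs. Its log2 difference of 4.90 ± 0.63 (adjusted p = 2.17e-10) corresponds to 29.9-fold. Chl1, a neural cell adhesion molecule, rose from 0.462 to 1.32 CPM (median 0.979) to 2.71 to 68.7 CPM (median 23.3), by 4.76 ± 0.63. Cemip, which degrades hyaluronan, ran from 0.654 to 1.28 CPM (median 0.756) in saline and from 2.26 to 57.3 CPM (median 11.3) in bleomycin lungs, a log2 difference of 4.36 ± 0.61. In each of these genes the lowest bleomycin lung stood above the highest saline lung, but the bleomycin lungs themselves spread widely.

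Thbs4, a matricellular thrombospondin, rose by 4.28 ± 0.54 and Megf11, an EGF-repeat membrane protein, by 4.06 ± 0.52. Sprr1a, a cornified-envelope protein made by stressed epithelium, ran from 0.187 to 0.702 CPM (median 0.391) in saline and from 4.11 to 10.7 CPM (median 8.53) in bleomycin lungs, a difference of 4.23 ± 0.43. Timp1 (ENSMUSG00000001131, chromosome X, 20870166 to 20874735), an inhibitor of matrix metalloproteinases, rose 16.3-fold, from 4.74 to 6.02 CPM (median 5.68) to 34.5 to 146.3 CPM (median 94.4). The acute-phase protein gene Saa3 rose by 4.0 ± 0.53, the matrix glycoprotein gene Tnc by 3.76 ± 0.41, and P4ha3, a collagen prolyl hydroxylase subunit, by 3.67 ± 0.47. Arg1 and Mmp12, arginase and the macrophage elastase, rose by 3.75 ± 0.65 and 3.72 ± 0.44. Ereg, a ligand of the EGF receptor, rose by 3.52 ± 0.57 and Rgs16, a brake on G-protein signalling, by 3.52 ± 0.40. Spp1 (ENSMUSG00000029304, chromosome 5, 104435118 to 104441050), osteopontin, ran from 169 to 246 CPM (median 206) in saline and from 1013 to 2551 CPM (median 2278) in bleomycin lungs, and was 10.04-fold higher (adjusted p = 1.15e-13).

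The 15 largest falls by the same rule began with Bpifa1, Krt15 and Hes2. Bpifa1 (ENSMUSG00000027483, chromosome 2, 154142880 to 154149219), a defence protein secreted by the upper airway epithelium, ran from 115.3 to 567 CPM (median 438) in saline and from 6.47 to 99.1 CPM (median 36.4) in bleomycin lungs, a log2 difference of −3.20 ± 0.86. Krt15, a keratin of basal cells, fell by 2.71 on the log2 scale and so did Hes2, a Hes-family repressor. Fabp1, a fatty acid binding protein of resident alveolar macrophages, fell from 2.19 to 6.46 CPM (median 4.70) to 0.0880 to 1.95 CPM (median 0.595), a difference of −2.60 ± 0.40. Slc5a12 and Atp6v1b1, a monocarboxylate transporter and a proton pump subunit, differed by −2.59 ± 0.47 and −2.58 ± 0.45. Igfbp3 (ENSMUSG00000020427, chromosome 11, 7206086 to 7213923), a binding protein of insulin-like growth factors, ran from 73.3 to 108.5 CPM (median 97.995) in saline and from 10.5 to 44.9 CPM (median 18.3) in bleomycin lungs, with a difference of −2.09 ± 0.22 (adjusted p = 1.02e-13). Krt79, Dcdc2a, Tbata, Gria1, Hrc, Cidec, Ankrd63 and Itprid1 made up the rest of the 15 largest falls, between −1.84 and −2.13. Hrc, a calcium-binding protein of muscle, and Cidec, a lipid droplet protein of fat cells, belong to tissues discussed with the heart and fat genes below.

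**Figure D1:**
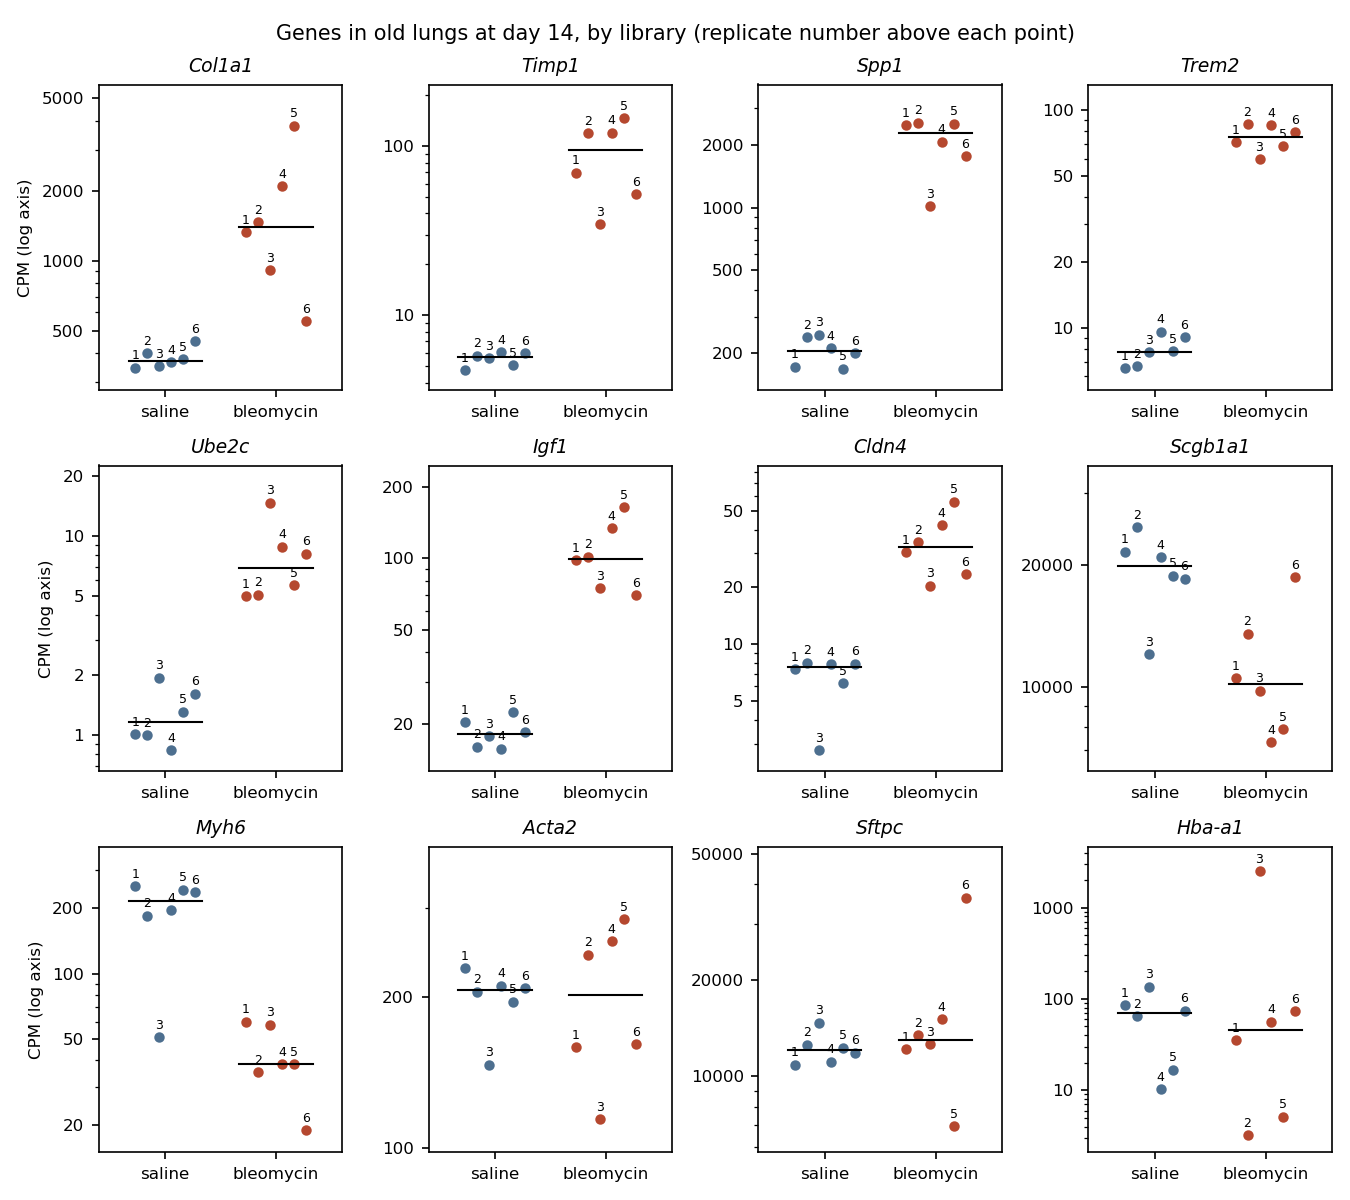
CPM on a log axis of 12 genes in the 6 saline and 6 bleomycin lungs of old mice at day 14. Points are libraries, marked by replicate number, and bars are medians. Col1a1, Timp1, Spp1, Trem2, Ube2c, Igf1 and Cldn4 show no overlap between the groups, Scgb1a1 and Myh6 overlap with lower bleomycin medians, Acta2 and Sftpc overlap, and Hba-a1 is set apart by bleomycin replicate 3 at 2506 CPM.

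Collagen is built from fibrillar chains, which give the matrix its tensile strength, and from network and beaded chains around them. Of the 10 fibrillar collagen genes 9 rose and none fell, with a median log2 difference of 1.92 against 0.008 over all genes tested. Col1a1 (ENSMUSG00000001506, chromosome 11, 94936224 to 94953042), the alpha-1 chain of type I collagen, ran from 347 to 449.9 CPM (median 372) in saline and from 548 to 3806 CPM (median 1394) in bleomycin lungs, a difference of 2.14 ± 0.29 (adjusted p = 9.67e-10). Col3a1 rose from 537 to 768 CPM (median 602) to 1122 to 4534 CPM (median 2369), by 2.02 ± 0.22. Col1a2 differed by 1.82 ± 0.25, Col5a1 by 1.60 ± 0.25, Col5a2 by 2.25 ± 0.27 and the rarer Col24a1 by 3.28 ± 0.44. The groups did not overlap for Col1a1, Col1a2, Col3a1, Col5a2 and Col24a1, whereas the lowest bleomycin lung lay within the saline range for Col5a1. The mean log2 CPM of the group was 7.60 in bleomycin replicate 5 and 5.42 in replicate 6, against 4.72 to 5.15 in saline lungs.

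Among the other interstitial collagens 13 of 18 rose and 1 fell. The chains of the beaded type VI collagen rose modestly, with Col6a1 at 0.83 ± 0.12, Col6a2 at 0.84 ± 0.13 and Col6a3 at 0.71 ± 0.18. Larger differences were seen in Col28a1 (2.37 ± 0.30) and Col22a1 (1.99 ± 0.30). Col8a2, a short-chain collagen, fell from 18.2 to 33.9 CPM (median 29.9) to 11.2 to 19.9 CPM (median 17.8). In the basement membrane list 10 of 19 rose and 2 fell, and 5 rose without bleomycin replicate 5 or with the 12 libraries fitted alone. Bleomycin replicate 6 had a list mean of 6.85 log2 CPM, below the saline lungs (7.28 to 7.45). Col4a1 and Col4a2, the chains found in every basement membrane, differed by 0.99 ± 0.16 and 0.79 ± 0.15, whereas Col4a3 and Col4a4, whose network lies under alveolar epithelium, differed by 0.12 ± 0.17 and 0.12 ± 0.13 and were not called. The laminin chain gene Lama1 rose from 7.19 to 11.1 CPM (median 8.86) to 16.4 to 63.9 CPM (median 46.1), by 2.32 ± 0.31. Col4a6 and Lamb2 fell by 0.55 and 0.20 on the log2 scale, Lamb2 at −0.12 and not called without bleomycin replicate 6.

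Glycoproteins that bind collagen or cells rose for the most part, with 21 of 28 higher and 3 lower. Fn1, fibronectin, ran from 543 to 621 CPM (median 597) in saline and from 707 to 6289.8 CPM (median 2454) in bleomycin lungs, a difference of 2.23 ± 0.32. Eln, elastin, rose from 379 to 511 CPM (median 479) to 1026 to 4532 CPM (median 2096), by 2.34 ± 0.28, without overlap. Sparc, a collagen-binding protein, differed by 1.32 ± 0.14 and Tnc by 3.76 ± 0.41. Postn, periostin, a common marker of fibrosis, stood at 297 to 354 CPM (median 317) in saline and 306 to 394 CPM (median 329) in bleomycin lungs and was not called (0.05 ± 0.09, adjusted p = 0.636). Tnxb, a tenascin of the adventitia, fell from 245 to 292 CPM (median 256) to 90.4 to 139.5 CPM (median 99.1), by 1.28 on the log2 scale, and Ltbp4 and Vtn also fell.

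Proteoglycans and hyaluronan genes split, with 8 of 19 higher and 4 lower. Has2, a hyaluronan synthase, rose from 0.601 to 1.10 CPM (median 1.03) to 2.66 to 16.8 CPM (median 7.51), by 3.09 ± 0.45. Fmod and Lum, small leucine-rich proteoglycans that shape fibrils, rose by 2.36 ± 0.35 and 1.44 ± 0.28, and Vcan and Bgn by 1.47 ± 0.33 and 0.83 ± 0.14. Dcn, decorin, of the same family, differed by 0.18 ± 0.14 and was not called. Ogn fell without overlap, from 316 to 424 CPM (median 361) to 135.2 to 202 CPM (median 194). Of the enzymes that modify and cross-link collagen 17 of 26 rose and 3 fell. Lox, lysyl oxidase, ran from 62.1 to 83.9 CPM (median 75.05) in saline and from 91.9 to 491 CPM (median 218) in bleomycin lungs, a difference of 1.67 ± 0.26. Loxl1, Loxl2 and Loxl3 differed by 0.68 ± 0.13, 1.64 ± 0.23 and 0.68 ± 0.15, and Adamts2, a procollagen N-proteinase, by 1.39 ± 0.19. Colgalt1, which glycosylates collagen, rose by 0.66 ± 0.08 while its paralogue Colgalt2 fell by 0.90.

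Proteases that cut the matrix moved both ways. Of the matrix metalloproteinases 8 of 17 rose and 3 fell. Mmp2, the gelatinase of mesenchymal cells, ran from 130.7 to 168 CPM (median 146.4) in saline and from 332 to 749.8 CPM (median 519) in bleomycin lungs, with no overlap and a difference of 1.82 ± 0.17. Mmp14, its membrane-bound activator, rose by 1.78 ± 0.19, and Mmp19 by 1.74 ± 0.22. Mmp12 rose from 7.23 to 23.7 CPM (median 10.4) to 87.8 to 229 CPM (median 166). Mmp9, the gelatinase of neutrophils, fell from 25.7 to 63.6 CPM (median 58.1) to 15.9 to 50.6 CPM (median 20.6), and Mmp28 and Mmp15 fell without overlap. Among Adamts and Adam proteases (12 of 20 higher, 3 lower) Adamts4, an aggrecanase, rose by 3.07 ± 0.41 and Adam12 by 2.18 ± 0.33, while Adamts5 and Adamts8 fell by 0.53 and 0.57.

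Cathepsins, proteases of the lysosome, rose in 10 of 13 cases and fell in none. Ctss, cathepsin S of antigen-presenting cells, ran from 166 to 248 CPM (median 192) in saline and from 1008 to 1520.1 CPM (median 1156) in bleomycin lungs, a difference of 2.61 ± 0.20 (adjusted p = 5.29e-20). Ctsd, Ctsk and Ctsb differed by 2.0 ± 0.20, 1.72 ± 0.27 and 1.59 ± 0.14. Protease inhibitors rose in 11 of 18 cases. Serpina3n rose from 129.3 to 205 CPM (median 164) to 241 to 1141 CPM (median 526), by 1.81 ± 0.26, and Serpine2 by 1.26 ± 0.19. Timp2 differed by 0.20 ± 0.07 (0.13 without bleomycin replicate 5 and 0.15 without saline replicate 6, neither called), Timp3 by 0.00 ± 0.12 (not called) and Timp4 fell by 0.93. In the plasminogen and coagulation list 10 of 15 rose. Plau and its receptor Plaur, which localise plasmin formation to the cell surface, differed by 0.96 ± 0.12 and 0.69 ± 0.11. The coagulation starter F3 was not called (0.34 ± 0.17), whereas F7, its partner, rose by 1.31 ± 0.20 and Thbd, the endothelial thrombomodulin, fell without overlap, by 0.50.

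TGF-beta is held latent in the matrix, released by integrins and read by receptor kinases that phosphorylate Smad proteins, and it drives collagen synthesis. Of the 22 ligands, receptors and activators 12 rose and 6 fell. The 3 ligands rose without overlap. Tgfb1 ran from 83.6 to 92.6 CPM (median 88.5) in saline and from 111.4 to 127.99 CPM (median 113.9) in bleomycin lungs, a difference of 0.42 ± 0.07. Tgfb2 and Tgfb3 differed by 0.51 ± 0.11 and 0.88 ± 0.13, Tgfbr1 by 0.51 ± 0.08 and the integrin chain Itgb5 by 0.69 ± 0.10. The endothelial receptors Eng and Acvrl1 and the co-receptor Tgfbr3 all fell without overlap, by 0.72, 0.47 and 0.84. Among carriers and targets 12 of 20 rose and 5 fell (3 without bleomycin replicate 6). The targets Tgfbi (1.26 ± 0.17), Pmepa1 (1.22 ± 0.17), Bhlhe40 (1.24 ± 0.18) and Ccn4 (1.88 ± 0.27) rose, while the inhibitory Smad genes Smad6 and Smad7 fell by 0.83 and 0.44. Smad2 rose by 0.16 ± 0.05, Smad4 fell by 0.26, and Smad3 was not called (−0.04 ± 0.08).

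Bone morphogenetic proteins share Smad4 with TGF-beta and often oppose it. Here 4 of 21 pathway genes rose and 8 fell. These genes were called in every alternative analysis, and 6 rose without bleomycin replicate 3 and 10 fell without replicate 5. Those that rose included the antagonists Grem1 and Nog (1.63 ± 0.31), with Bmper (0.60 ± 0.18) and the target Id2 (0.48 ± 0.11). Those that fell included the ligands Bmp2 and Bmp3, by 0.57 and 0.70, and the receptor Bmpr2, which ran from 924 to 1091 CPM (median 1016) in saline and from 439 to 792 CPM (median 599) in bleomycin lungs. The antagonist Chrdl1 also fell, by 1.0. Bmp4 and Bmp5 differed by 0.11 ± 0.08 and −0.04 ± 0.08 and were not called.

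Wnt pathway genes moved both ways at shares close to the background (11 of 38 higher, 10 lower). Sfrp1, a secreted Wnt inhibitor of fibroblasts, ran from 23.4 to 30.9 CPM (median 26.1) in saline and from 52.7 to 361 CPM (median 148.1) in bleomycin lungs, a difference of 2.60 ± 0.28 with no overlap. Wnt10a and Dkk2 rose from low levels, to 0.752 to 4.44 CPM (median 2.12) and 3.11 to 11.1 CPM (median 4.97), and Wnt7b rose by 1.16 ± 0.17. Wnt2b, Lrp5, Fzd4 and Wif1 fell by 1.28, 0.41, 0.51 and 1.07. Wnt3a and Wnt4 were not called.

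Growth factors for mesenchyme and their receptors moved both ways. In the PDGF and FGF list 6 of 22 rose and 7 fell, shares near the background. Pdgfc ran from 3.50 to 4.99 CPM (median 4.27) in saline and from 6.27 to 21.6 CPM (median 12.4) in bleomycin lungs, a difference of 1.59 ± 0.21, Pdgfa differed by 0.45 ± 0.12 (0.25 and not called without bleomycin replicate 6), and Pdgfb by 0.02 ± 0.08 (not called). Etv4 and Spry4, which respond to FGF signals, rose by 3.01 ± 0.50 and 0.89 ± 0.14. The receptor genes Fgfr2, Fgfr3 and Fgfr4 fell without overlap, by 0.80, 0.68 and 0.66, while Fgfr1 rose by 0.52 ± 0.12. Igf1, a growth factor of macrophages and fibroblasts, ran from 15.7 to 22.5 CPM (median 18.1) in saline and from 69.7 to 164 CPM (median 99.7) in bleomycin lungs, a difference of 2.54 ± 0.28 (adjusted p = 7.1e-13), while its receptor Igf1r fell by 0.65. The EGF receptor ligands Areg and Hbegf rose by 1.41 ± 0.26 and 0.88 ± 0.12, and Tgfa fell by 0.36.

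Mesenchymal cell types differed from each other. Of 18 genes that mark fibroblasts of fibrotic lungs 15 rose and none fell, with a median of 2.24. Cthrc1, which marks the collagen-rich fibroblasts of fibrosis, ran from 5.44 to 8.82 CPM (median 6.12) in saline and from 9.61 to 30.6 CPM (median 11.5) in bleomycin lungs, a difference of 1.17 ± 0.26. Fst, follistatin, rose by 2.31 ± 0.41. In contrast, 3 of 15 contractile genes rose, 6 fell and the median difference was 0.03. Acta2, smooth muscle actin, stood at 146.6 to 228 CPM (median 206) in saline and 114.1 to 285 CPM (median 202) in bleomycin lungs, a difference of 0.03 ± 0.17 (adjusted p = 0.893). Tagln was at 0.35 ± 0.16 and was not called, Tpm1 rose by 0.39 ± 0.09, and Myh11 and Cnn1, markers of mature smooth muscle, fell by 0.93 and 0.84. In whole tissue, fewer cells of a type and less RNA per cell cannot be told apart.

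Alveolar fibroblast genes fell more often than they rose (8 lower and 5 higher of 19). Inmt ran from 1461 to 2263 CPM (median 1671) in saline and from 448 to 1876 CPM (median 704) in bleomycin lungs, a difference of −0.98 ± 0.22, Npnt fell by 0.41, Itga8 by 0.90 and Slc7a10 by 1.47. Plin2 and Mfap4 rose by 0.70 ± 0.12 and 0.81 ± 0.14, and the transcription factor gene Tcf21 was not called (−0.26 ± 0.15). Adventitial fibroblast genes split evenly, with 7 higher and 7 lower of 19. Pi16 and Dpp4, which mark progenitor-like adventitial fibroblasts, fell by 0.81 and 0.63, and Cd34 and Ackr3 rose by 0.84 ± 0.10 and 1.09 ± 0.19. Of 16 pericyte genes 3 rose and 5 fell, with 5 and 5 without bleomycin replicate 3 or without replicate 5. Pdgfrb, Cspg4 and Rgs5 were not called, and Notch3 fell from 213 to 237 CPM (median 227) to 64.1 to 193 CPM (median 158).

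**Figure D2:**
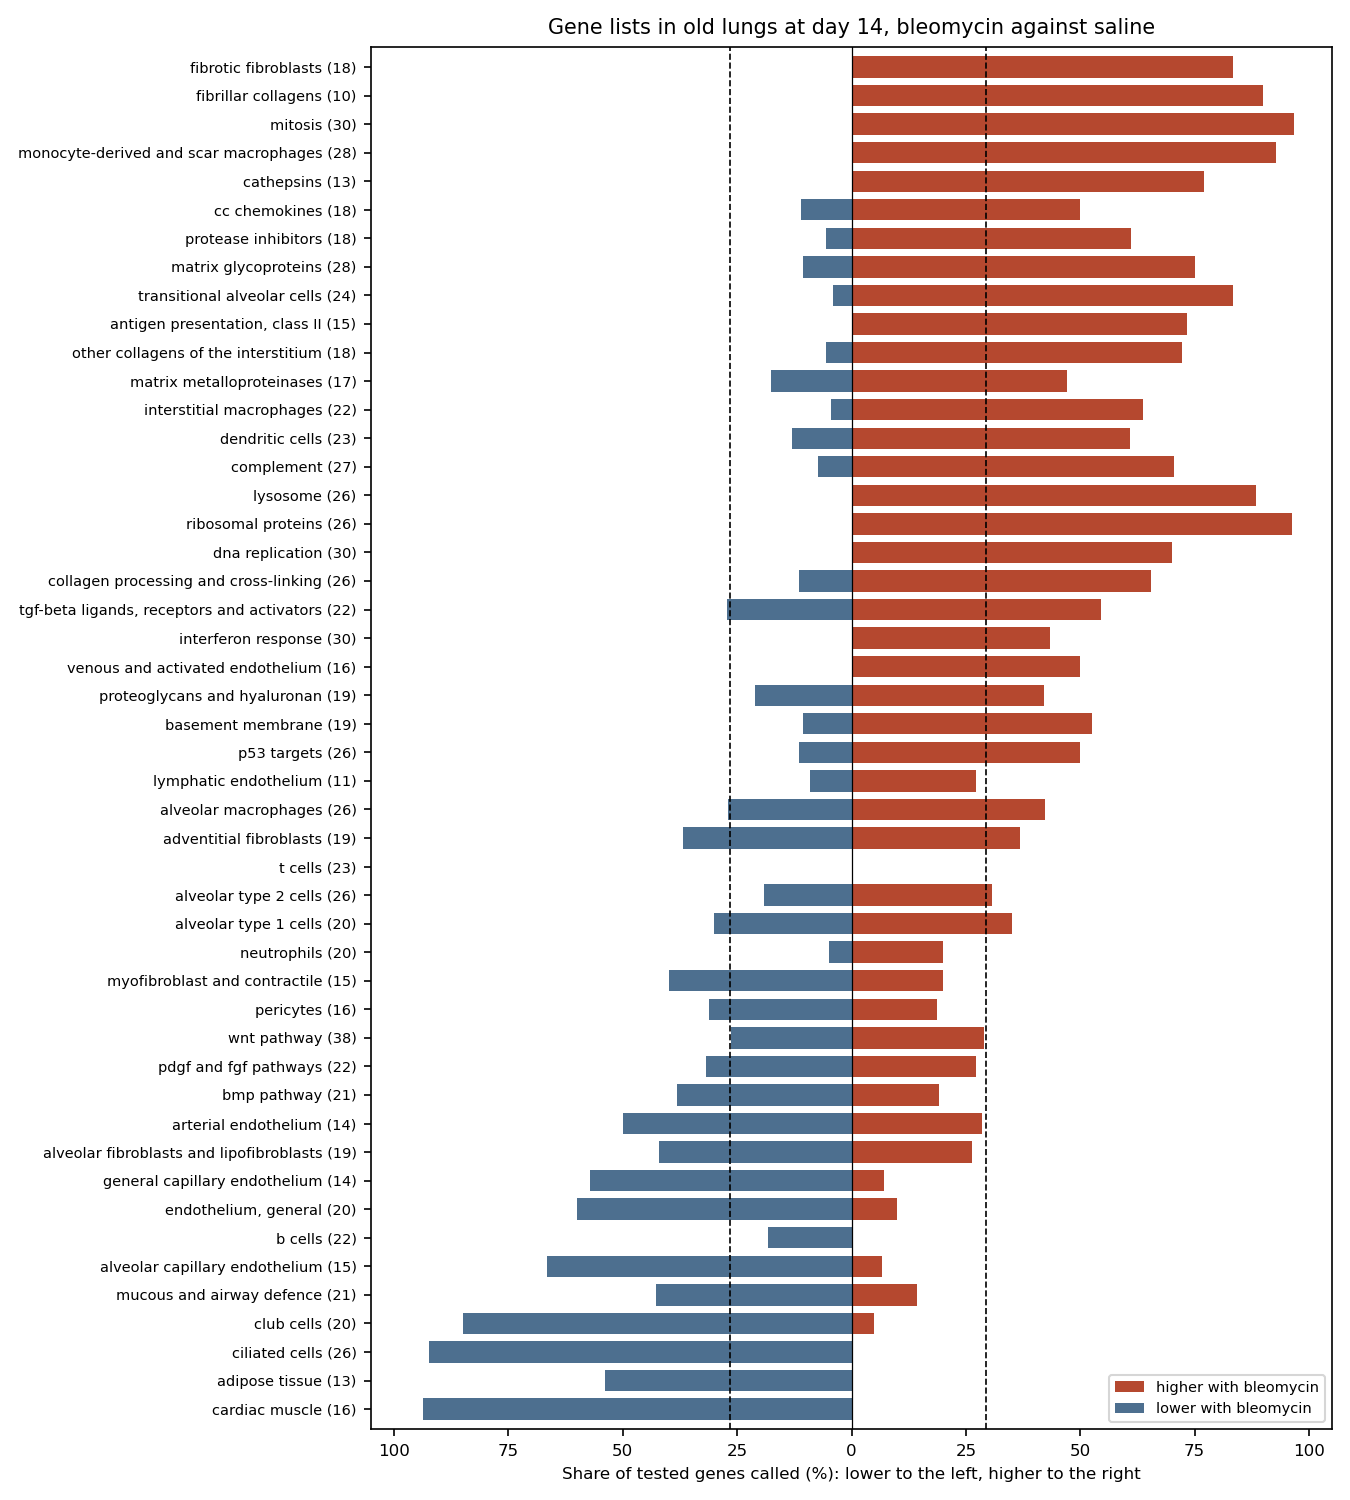
Share of tested genes in each of 48 gene lists that rose (right) and fell (left) in old lungs with bleomycin, ordered by the median log2 difference. Dashed lines mark the shares over all 18396 genes, 29.3% higher and 26.5% lower, and the numbers beside each list are genes tested. Fibrotic fibroblasts, fibrillar collagens, mitosis and monocyte-derived macrophages lie at the top right, and cardiac muscle, fat, ciliated and club cells at the lower left.

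The alveolar wall is mostly capillary, and endothelial genes fell more often than they rose. Of 20 general endothelial genes 12 fell and 2 rose (Emcn, 0.49 ± 0.17, and Esam, 0.20 ± 0.07). Without bleomycin replicate 6 Emcn and Esam were at 0.26 and 0.10 and not called, nor was Esam without saline replicate 6 (0.14). Cdh5, the cadherin of endothelial junctions, ran from 1032 to 1203 CPM (median 1123) in saline and from 521 to 957 CPM (median 743) in bleomycin lungs, a difference of −0.61 ± 0.10. Pecam1, Ptprb, Clec14a, Kdr and Tek fell by 0.31, 0.95, 0.79, 0.83 and 0.66, and Cldn5 was not called (−0.03 ± 0.15). Among markers of the alveolar capillary cells that line gas exchange 10 of 15 fell (6 with the 12 libraries fitted alone), with Ednrb, the endothelin B receptor, from 90.4 to 109.9 CPM (median 95.9) to 26.5 to 48.6 CPM (median 44.9). Igfbp7 was the exception and rose by 1.08 ± 0.13. Among general capillary markers 8 of 14 fell, with Glp1r at −1.48 ± 0.22, while Lpl, a lipase also made by macrophages, rose by 1.36 ± 0.17.

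Genes of veins and activated endothelium went the other way, with 8 of 16 higher and none lower. Ackr1, the chemokine-binding receptor of venules, ran from 0.273 to 1.15 CPM (median 0.504) in saline and from 2.47 to 8.80 CPM (median 4.10) in bleomycin lungs, a difference of 2.96 ± 0.41 without overlap. Lrg1 rose by 1.69 ± 0.24, Selp, P-selectin, by 1.3 ± 0.25 and Col15a1 by 1.73 ± 0.28. Vwf and Sele were not called. Arterial genes were mixed (4 higher and 7 lower of 14), with Gja4 at 0.72 ± 0.15 and Bmx at −0.79 ± 0.11. Lymphatic genes were higher in 3 of 11 cases, close to the background share (5 without bleomycin replicate 6). Among them were Prox1 (0.76 ± 0.21) and Pdpn, also a type 1 cell gene (0.85 ± 0.15). In the VEGF and angiopoietin list 10 of 18 fell and 4 rose. Vegfa fell by 0.29 and Angpt1 by 0.74, both without overlap, and Pgf, placental growth factor, rose by 1.64 ± 0.22.

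Alveolar epithelial genes moved both ways. For type 1 cells, 7 of 20 rose and 6 fell, shares near the background. Ager and Aqp5 rose by 0.46 ± 0.14 and 0.34 ± 0.12 (Aqp5 was at 0.26 and not called without bleomycin replicate 6), Igfbp2 by 1.06 ± 0.23, Hopx was not called (−0.07 ± 0.16), and Rtkn2 and Cav1 fell by 0.56 and 0.30. For type 2 cells, 8 of 26 rose, near the background share, and 5 fell. Without bleomycin replicate 6 the type 2 counts were 5 and 7. Between 2 and 3 fell without bleomycin replicate 2, 4 or 5. Sftpc differed by 0.40 ± 0.18 (adjusted p = 0.052), and its highest value, 36335 CPM, was bleomycin replicate 6. Sftpb and Sftpa1, other surfactant protein genes, were not called. Sftpd, the collectin, rose by 0.87 ± 0.13 and Napsa by 0.71 ± 0.11, while Abca3, which loads surfactant lipid, fell by 0.35 and Etv5 by 0.37.

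Type 2 cells that are turning into type 1 cells pass through a state marked by Krt8, and 20 of 24 genes of this state rose, 15 of them without overlap. Krt8 ran from 108.1 to 146.8 CPM (median 129.8) in saline and from 150.1 to 215 CPM (median 194) in bleomycin lungs, a difference of 0.55 ± 0.13, and Krt18, its partner keratin, differed by 0.76 ± 0.12. Cldn4, a claudin of this state, rose from 2.77 to 8.004 CPM (median 7.62) to 20.3 to 55.98 CPM (median 32.4), by 2.36 ± 0.38. Sfn, Clu and Lgals3 differed by 1.52 ± 0.19, 1.25 ± 0.13 and 1.39 ± 0.16. Several of these genes are also expressed by airway cells or macrophages. Krt19 was not called and Tm4sf1 fell by 0.28.

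Airway genes fell. Of 20 genes of club cells, the secretory cells of the bronchioles, 17 fell and 1 rose. Scgb1a1 ran from 12060.5 to 24808 CPM (median 19851) in saline and from 7327 to 18662 CPM (median 10169) in bleomycin lungs, a difference of −0.78 ± 0.21, and the groups overlapped. Cyp2f2, a cytochrome P450 of these cells, fell from 1231 to 2864 CPM (median 2402) to 518 to 1113 CPM (median 1045) without overlap, by 1.32. Scgb3a1, Pon1, Chad and Ces1f fell by 1.64, 1.46, 1.59 and 1.79. The gene that rose was Retnla, also made by macrophages and fat cells, which ran from 24.5 to 78.9 CPM (median 57.2) in saline and from 176 to 625 CPM (median 346) in bleomycin lungs. Of 26 ciliated cell genes 24 fell and none rose. Foxj1, which switches on cilium genes, ran from 51.3 to 149.2 CPM (median 118.5) in saline and from 36.04 to 83.2 CPM (median 64.7) in bleomycin lungs, a difference of −0.82 ± 0.21. Dnah9, Dnah11 and Hydin, parts of the moving axoneme, fell by 1.49, 1.29 and 1.66. Saline replicate 3 was the lowest saline lung for 26 of the 26 ciliated genes, and without it the groups did not overlap for 21 of them, against 1 with it. Its mean log2 CPM over the list was 4.21 against 5.30 for the saline median and 3.51 to 4.45 in bleomycin lungs.

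Mucous and airway defence genes fell more often than they rose, with 9 of 21 lower and 3 higher. Muc5b, the mucin of healthy mouse airways, fell from 15.1 to 81.7 CPM (median 67.6) to 4.86 to 40.7 CPM (median 16.7), by 1.56, and Pigr, which carries antibody across the epithelium, by 1.11. Muc5ac was not called (−0.12 ± 0.44). Lcn2, lipocalin, which binds bacterial siderophores, ran from 127.7 to 199 CPM (median 154) in saline and from 489.9 to 963 CPM (median 687) in bleomycin lungs, a difference of 2.17 ± 0.27. Basal cell genes were scarce, with 0.139 to 1.27 CPM (median 0.773) for Krt5 in saline and 0.117 to 0.823 CPM (median 0.257) in bleomycin lungs, and Krt5, Trp63 and Krt14 were not called. Of 16 mesothelial genes 1 rose (Msln, 1.11 ± 0.24, with 2 to 4 genes higher without bleomycin replicate 1, 3, 5 or 6 or saline replicate 3) and 1 fell (Igfbp6, −0.82 ± 0.18).

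Genes of tissue outside the lung wall moved with the airway genes. Of 16 heart muscle genes 15 fell and none rose, and the count was 15 without the 3 libraries that stood apart. Myh6, the heart's alpha myosin, also made in the muscle sleeves of pulmonary veins, ran from 50.9 to 254 CPM (median 217) in saline and from 18.997 to 60.1 CPM (median 38.3) in bleomycin lungs, a difference of −2.23 ± 0.54. The lowest saline value was replicate 3. Ryr2 and Actc1 fell by 2.02 and 1.5. The mean log2 CPM of the list was 2.87 to 4.50 in saline and 2.36 to 3.14 in bleomycin lungs, and no defining gene was at 0. Of 13 fat genes 7 fell and none rose (3 or 4 fell without bleomycin replicate 2, 4 or 5 or saline replicate 5), with Adipoq from 1.29 to 8.17 CPM (median 6.26) to 0.156 to 4.40 CPM (median 1.27) (a call lost in 9 of 19 alternative analyses), and list means of 1.81 to 3.42 in saline and 0.371 to 2.64 in bleomycin lungs. The part of these tissues, which sit at the hilum with the large airways, in the fall of the airway genes was not tested.

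Genes of macrophages that derive from monocytes rose in nearly every case. Of 28 genes of monocyte-derived and scar macrophages 26 rose, 23 of them without overlap, and none fell. Trem2 (ENSMUSG00000023992, chromosome 17, 48346401 to 48354147), a lipid receptor of these cells, ran from 6.53 to 9.62 CPM (median 7.78) in saline and from 59.6 to 86.6 CPM (median 75.3) in bleomycin lungs. The difference was 3.25 ± 0.24, or 9.49-fold (adjusted p = 5.86e-21). Gpnmb, a glycoprotein of lipid-laden macrophages, rose from 45.3 to 61.5 CPM (median 55.0) to 252 to 551 CPM (median 367), by 2.80 ± 0.28. Apoe, the lipoprotein, differed by 1.82 ± 0.14 and Cd9 by 0.26 ± 0.08 (0.18 and not called without bleomycin replicate 6). C1qa, which encodes a chain of the first complement component, ran from 34.9 to 62.4 CPM (median 51.04) in saline and from 226 to 391 CPM (median 301) in bleomycin lungs, a difference of 2.55 ± 0.21. C1qb and C1qc differed by 2.67 ± 0.22 and 2.48 ± 0.20. Of the 22 interstitial macrophage genes 14 rose and 1 fell. Cx3cr1 and Ms4a7 rose by 0.84 ± 0.16 and 2.34 ± 0.23. Cbr2, also an epithelial gene, was the gene that fell.

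Resident alveolar macrophage genes split, with 11 of 26 higher and 7 lower. Siglecf, their defining lectin, ran from 15.9 to 25.2 CPM (median 19.98) in saline and from 8.85 to 14.7 CPM (median 11.8) in bleomycin lungs, a difference of −0.75 ± 0.13 with no overlap. Fabp1, Krt79 and Ear1 also fell, with differences of −2.60, −2.13 and −1.34. Marco and Chil3 were not called, and Itgax and Atp6v0d2, which monocyte-derived macrophages can also express, rose by 1.06 ± 0.14 and 1.19 ± 0.17. Lysosomal genes rose in 23 of 26 cases and phagocyte receptor and oxidase genes in 20 of 27. These counts, with 2 phagocyte genes lower (Nox4 and Duox2), were made of genes called in every alternative analysis. Cd68 ran from 52.2 to 68.7 CPM (median 58.0) in saline and from 120.2 to 182 CPM (median 149.9) in bleomycin lungs, a difference of 1.35 ± 0.18. Msr1, a scavenger receptor, rose by 2.93 ± 0.32, Clec4n, dectin-2, by 2.41 ± 0.23 and Fcgr1, an antibody receptor, by 1.94 ± 0.23, while Nox4, an oxidase of mesenchymal cells, fell by 0.43. Iron-storage genes Fth1 and Ftl1 rose by 1.01 ± 0.14 and 1.02 ± 0.13, and Hmox1, which breaks down heme, by 1.13 ± 0.17.

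Class II antigen presentation genes rose in 11 of 15 cases, every one of them without overlap. H2-Aa ran from 399 to 559 CPM (median 491) in saline and from 647 to 1027 CPM (median 722) in bleomycin lungs, a difference of 0.74 ± 0.13, and Cd74, the invariant chain, differed by 0.84 ± 0.14. Of class I genes 8 of 19 rose and none fell (4 and 1 without the 3 libraries that stood apart), with B2m at 0.63 ± 0.14 and Tap1 not called. Dendritic cell genes rose in 14 of 23 cases and fell in 3 (5 without saline replicate 6). Fscn1, of migrating dendritic cells, rose by 1.56 ± 0.17, Ccl17 by 1.59 ± 0.24 and Flt3 by 0.81 ± 0.18, while Siglech, of plasmacytoid cells, fell by 1.14. Of 20 genes listed for monocytes 5 rose and 3 fell (5 without bleomycin replicate 3 or saline replicate 2, 1 without bleomycin replicate 5), with Ccr2 at 0.54 ± 0.19 (0.41 and not called without saline replicate 6) and Ly6c2 not called (−0.25 ± 0.37).

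Few general lymphocyte genes were called. None of 23 general T cell genes was called by edgeR or by DESeq2, and none had an unadjusted p under 0.05. Cd3e stood at 7.14 to 14.3 CPM (median 7.56) in saline and 5.92 to 10.9 CPM (median 8.13) in bleomycin lungs, a difference of −0.07 ± 0.32, with overlap. Genes of regulatory and activated T cells did rise, in 13 of 24 cases. Foxp3, which specifies regulatory T cells, ran from 0.182 to 1.20 CPM (median 0.730) in saline and from 1.45 to 3.87 CPM (median 2.28) in bleomycin lungs, a difference of 1.78 ± 0.34 without overlap, and Tnfrsf9 and Tnfrsf4 rose by 2.11 ± 0.35 and 1.16 ± 0.17. Of 22 cytotoxic and NK genes 1 fell (Ncr1, −0.89 ± 0.40, a call lost in 13 of 19 alternative analyses). Of 22 B cell genes 4 fell and none rose, and 2 fell without bleomycin replicate 2 or saline replicate 1 or 3. Vpreb3 fell without overlap, by 0.92. Plasma cell genes were mixed (5 higher and 3 lower of 23, 6 lower without saline replicate 2 or 6), with Jchain not called (−0.55 ± 0.51) and Slamf7 at 1.31 ± 0.22.

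Neutrophil genes turned with a library. Of 20 genes 4 rose and 1 fell, but without bleomycin replicate 3 the counts were 2 and 6, and 3 fell without saline replicate 6. S100a8, a calcium-binding alarmin, ranged from 37.8 to 85.9 CPM (median 63.9) in saline and 24.4 to 190.4 CPM (median 44.9) in bleomycin lungs and was not called (0.28 ± 0.40). Ngp and Camp, granule genes of maturing neutrophils, reached 0 to 30.9 CPM (median 0.373) and 0 to 7.31 CPM (median 0.135) with bleomycin, and both maxima were replicate 3. Without it Ngp and Camp differed by −1.03 and 0.52 and were not called. Genes of mast cells, basophils and eosinophils fell in 8 of 16 cases (5 without bleomycin replicate 2 or 5) and rose in 1, with Ccr3, the eosinophil chemokine receptor, from 1.24 to 4.90 CPM (median 2.97) to 0.440 to 1.65 CPM (median 0.910).

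Chemokines recruit leukocytes. Of 18 CC chemokines 9 rose and 2 fell (Ccl20, −1.18 ± 0.47, and Ccl27a, −0.41 ± 0.15). Neither of these falls was called without bleomycin replicate 3 or 5 or saline replicate 2, at −1.0 to −1.04 and −0.32 to −0.35, nor Ccl27a without bleomycin replicate 2 (−0.35), and without bleomycin replicate 6 Ccl27a was at −0.70. Ccl2 ran from 1.73 to 3.51 CPM (median 2.65) in saline and from 7.77 to 20.2 CPM (median 16.03) in bleomycin lungs, a difference of 2.51 ± 0.32, and Ccl7, Ccl12 and Ccl8, other ligands of monocyte receptors, differed by 2.25 ± 0.32, 2.42 ± 0.28 and 2.23 ± 0.41. Of the CXC, C and CX3C group 7 of 16 rose and 2 fell. Cxcl10 and Cxcl9 rose by 1.99 ± 0.32 and 2.27 ± 0.60, Cxcl16 by 1.03 ± 0.10, and the neutrophil attractants Cxcl2 and Cxcl3 were not called, with Cxcl5 lower by 1.22 (−1.0 and not called without saline replicate 2). Cx3cl1 fell without overlap, by 0.51.

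Cytokine ligands rose in 16 of 31 cases and fell in 1 (Il16, −0.30 ± 0.11, and −0.25 and not called without bleomycin replicate 2). Il1rn, which blocks the interleukin-1 receptor, ran from 6.35 to 10.5 CPM (median 8.64) in saline and from 21.002 to 28.002 CPM (median 23.9) in bleomycin lungs, a difference of 1.49 ± 0.21. Il1b, by contrast, was at 0.45 ± 0.29 and was not called. Il11 and Lif, relatives of interleukin-6, rose by 1.57 ± 0.29 and 1.27 ± 0.22, and Il6 itself by 1.62 ± 0.37. Il33, an alarmin of type 2 cells, differed by 0.71 ± 0.13. Among receptors and regulators 17 of 29 rose, with Socs3 at 1.39 ± 0.18. Complement genes rose in 19 of 27 cases and fell in 2, or in 1 to 5 on leaving out 1 library (5 without saline replicate 6, 4 without bleomycin replicate 1 or saline replicate 3, 1 without bleomycin replicate 2 or 4). The genes that fell were C7 (−0.59 ± 0.18) and Hc (−0.40 ± 0.15), the latter between −0.26 and −0.36 and not called without bleomycin replicate 2, 4 or 5, and C3ar1, a receptor on macrophages, rose by 2.45 ± 0.22.

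Interferon response genes are switched on through the interferon-stimulated response element, a pair of GAAA repeats in their promoters bound by STAT and IRF proteins. Of 30 such genes 13 rose and none fell (8 rose without saline replicate 3), with a median of 0.39. Isg15, a ubiquitin-like protein, ran from 10.5 to 13.5 CPM (median 11.8) in saline and from 21.3 to 59.8 CPM (median 33.04) in bleomycin lungs, a difference of 1.58 ± 0.24 with no overlap. Ifit1 rose by 0.99 ± 0.20 and Bst2, tetherin, by 0.64 ± 0.15. Rsad2, viperin, ran to 19.3 to 186 CPM (median 24.4) with bleomycin. Its highest value was replicate 3, and its call was lost in 1 of 19 alternative analyses. Ifit2 was not called (0.08 ± 0.13). 4 of the 13 were called in every alternative analysis, and without bleomycin replicates 3 and 6 and saline replicate 3 the counts were 4 higher and 1 lower. Of genes induced by interferon-gamma 7 of 24 rose, a share close to the background, and none fell (6 rose without those 3 libraries). Gbp2 and Gbp5 were at −0.02 ± 0.25 and −0.12 ± 0.31, neither called, and Nos2 at 1.49 ± 0.25.

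The promoters of 3 of these genes are shown. They were picked as the genes with the smallest p that rose and held the element in the bases printed. RefSeq promoters on GRCm38.p6 cover 250 bases before and 50 after a gene start, and the 150 bases before the start are printed 5′ to 3′ on the gene's own strand, with matches to the core of the element, a pair of GAAA with 2 bases between them on either strand, in capitals. The first lies at chr4:156200819-156200968 on the minus strand, the second at chr12:26456453-26456602 on the minus strand and the third at chr19:34640739-34640888 on the plus strand.
Isg15: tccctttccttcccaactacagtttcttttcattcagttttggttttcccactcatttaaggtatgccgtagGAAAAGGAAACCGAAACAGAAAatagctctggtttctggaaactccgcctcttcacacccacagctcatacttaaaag
Rsad2: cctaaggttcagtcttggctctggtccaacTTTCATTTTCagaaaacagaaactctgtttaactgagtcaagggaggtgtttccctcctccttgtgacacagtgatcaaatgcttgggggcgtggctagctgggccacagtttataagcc
Ifit1: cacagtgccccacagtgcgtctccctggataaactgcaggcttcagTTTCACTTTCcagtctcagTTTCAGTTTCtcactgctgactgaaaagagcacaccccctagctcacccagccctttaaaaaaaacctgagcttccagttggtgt
Isg15 holds 3 overlapping matches, which begin 78, 72 and 66 bases before the start, Rsad2 has 1 at 120 bases and Ifit1 has 2, the nearer at 85 bases. The element was present in 13 of the 22 interferon response genes that had an entry (59.1%), against 1131 of 32851 entries (3.44%). It was in 7 of the 9 with an entry that rose and in 6 of the 13 that were not called. A match of letters is a description and does not show binding.

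Cell cycle genes rose together. Of 30 mitosis genes 29 rose and none fell, 23 of them without overlap, with a median of 1.66. Ube2c, which tags cyclins for destruction, ran from 0.840 to 1.94 CPM (median 1.16) in saline and from 4.97 to 14.6 CPM (median 6.87) in bleomycin lungs, a difference of 2.61 ± 0.34 (adjusted p = 2.55e-10). Cdk1, the kinase that starts mitosis, and its cyclins Ccnb1 and Ccnb2 differed by 2.33 ± 0.34, 2.07 ± 0.41 and 1.78 ± 0.26. Mki67, the usual label of dividing cells, ran from 8.82 to 15.3 CPM (median 9.84) in saline and from 17.7 to 56.9 CPM (median 30.6) in bleomycin lungs, a difference of 1.5 ± 0.38. DNA replication genes rose in 21 of 30 cases and fell in none, by less, with a median of 0.49. Ccne1 and Gins2 differed by 2.01 ± 0.36 and 1.29 ± 0.22, while Mcm2 and Mcm4, parts of the replicative helicase, were not called.

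Mitosis genes are repressed in resting cells through the cell cycle homology region, TTTGAA or TTCGAA, often beside CCAAT boxes bound by NF-Y. The 150 bases before the start of 3 mitosis genes are printed as above, with matches to the homology region and to CCAAT, on either strand, in capitals. These genes were picked in the same way, as ones that rose and held the homology region there. They lie at chr2:164769779-164769928 on the plus strand, chr7:80294326-80294475 on the plus strand and chr4:118437344-118437493 on the minus strand.
Ube2c: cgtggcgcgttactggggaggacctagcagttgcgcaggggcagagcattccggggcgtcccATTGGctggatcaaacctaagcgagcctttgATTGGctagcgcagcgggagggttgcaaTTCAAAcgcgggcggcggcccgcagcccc
Prc1: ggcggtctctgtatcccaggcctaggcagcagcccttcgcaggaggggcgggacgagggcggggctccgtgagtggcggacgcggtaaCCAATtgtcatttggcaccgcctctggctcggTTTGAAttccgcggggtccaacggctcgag
Cdc20: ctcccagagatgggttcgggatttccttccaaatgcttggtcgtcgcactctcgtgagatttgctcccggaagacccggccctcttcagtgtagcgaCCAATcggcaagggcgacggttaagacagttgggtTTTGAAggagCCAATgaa
The homology region begins 29 bases before the start in Ube2c, 30 in Prc1 and 18 in Cdc20, and these promoters hold 2, 1 and 2 CCAAT boxes. Among the 25 mitosis genes with an entry, 20 held the homology region and 20 held CCAAT (80%), against 19.2% and 37.4% of all 32851 entries. Prc1, which bundles the microtubules of the dividing spindle, ran from 2.501 to 3.91 CPM (median 3.55) in saline and from 8.65 to 16.4 CPM (median 11.2) in bleomycin lungs. Cdc20, which activates the anaphase-promoting complex, rose from 4.18 to 5.17 CPM (median 4.65) to 8.66 to 13.5 CPM (median 10.4), again without overlap.

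Targets of p53 and senescence genes rose more often than they fell. Of 26 p53 targets 13 rose and 3 fell (1 without bleomycin replicate 6 or saline replicate 4). Cdkn1a, the inhibitor p21, ran from 222 to 426 CPM (median 267) in saline and from 352 to 537 CPM (median 492) in bleomycin lungs, a difference of 0.66 ± 0.13, with overlap. Psrc1 and Ckap2, p53 targets that also act on the spindle, rose by 2.08 ± 0.17 and 2.27 ± 0.24. Bax and Ccng1 differed by 0.60 ± 0.11 and 0.57 ± 0.10, Mdm2 was not called (0.13 ± 0.08), and Rrm2b fell by 0.71. In the senescence list 15 of 21 rose and 2 fell (Cdkn1b, −0.37 ± 0.06, and Igfbp3). Cdkn2a, whose products p16 and p19 mark senescent cells, rose from 1 to 1.71 CPM (median 1.41) to 2.10 to 5.71 CPM (median 3.86), by 1.48 ± 0.30. Glb1, the beta-galactosidase behind the usual stain, rose by 0.86 ± 0.09, without overlap, and is also a lysosomal gene. DNA repair genes were split (13 higher and 8 lower of 27), with 8 and 8 without saline replicate 3 and 5 lower without bleomycin replicate 2 or 3, and Xpc at −0.44 ± 0.07.

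Blmh, bleomycin hydrolase, ran from 40.3 to 45.7 CPM (median 43.5) in saline and from 50.2 to 75.2 CPM (median 59.9) in bleomycin lungs, a difference of 0.49 ± 0.07 with no overlap. In the drug-handling list, which holds Blmh, 10 of 16 fell and 2 rose. Among those that fell were Aox3, an aldehyde oxidase, from 138.9 to 228 CPM (median 215) to 60.0 to 124.2 CPM (median 75.7), and the flavin monooxygenases Fmo1 and Fmo2, each by 0.98. Of antioxidant genes 10 of 24 rose and 7 fell. Mt2, a metallothionein, and Prdx1 rose by 2.19 ± 0.30 and 1.0 ± 0.13, while Cat, catalase, and Gstm1 fell by 0.57 and 0.84 and Nqo1 by 0.40 (−0.30 and not called without bleomycin replicate 4).

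Of 21 glycolysis genes 13 rose and 2 fell (Pfkm, −0.28 ± 0.07, and Pdk1, −0.23 ± 0.07). Ldha, which makes lactate, ran from 184 to 203 CPM (median 194) in saline and from 271 to 390.4 CPM (median 352) in bleomycin lungs, a difference of 0.81 ± 0.11. Pkm and Eno1 differed by 0.60 ± 0.09 and 0.86 ± 0.14, and Hif1a by 0.58 ± 0.10, while Epas1, the endothelial and alveolar relative of Hif1a, fell from 3793 to 4495 CPM (median 3902) to 1782 to 2845 CPM (median 2469). Genes of fatty acid synthesis and lipid handling were split (9 higher, 11 lower of 29), with Acacb and Acly lower by 0.80 and 0.36 and Fabp5 and Me1 higher by 0.98 ± 0.16 and 0.54 ± 0.10. The transport machinery from the endoplasmic reticulum to the Golgi rose in 16 of 28 cases, with Kdelr3 at 1.56 ± 0.19, whereas the stress sensor target Hspa5 was not called (0.14 ± 0.14).

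Ribosomal protein genes rose in 25 of 26 cases and nuclear genes of oxidative phosphorylation in 21 of 26, with none lower. These are short transcripts, and bleomycin replicate 6 was the highest library for both lists, with list means of 7.05 and 7.05, against 6.32 and 6.38 for the group medians. Without it the counts were 17 and 19, and the medians went from 0.52 and 0.47 to 0.36 and 0.31. Ribosomal, globin and class I genes have near-identical copies, and how reads matching several genes were counted is not given in the sources used here, so their values are less certain. Cox5a ran from 43.5 to 49.4 CPM (median 45.7) in saline and from 59.6 to 164 CPM (median 79.4) in bleomycin lungs, a difference of 0.98 ± 0.14. Over all genes the median difference was 0.16 in the shortest 25% and −0.14 in the longest, and 0.05 and −0.09 without replicate 6. Of 9 genes encoded in the mitochondrion 5 fell and none rose (8 fell without replicate 6, 2 without replicate 4 or with the 12 libraries fitted alone), with mt-Nd5 from 2062 to 2526 CPM (median 2138) to 833 to 1821 CPM (median 1501).

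Blood and skeletal muscle genes were high in few libraries. Of 14 blood genes 10 rose, but 1 rose and 5 fell without bleomycin replicate 3. Hba-a1, a globin with a near-identical copy, ran from 10.3 to 136.1 CPM (median 69.7) in saline and from 3.23 to 2506 CPM (median 45.7) in bleomycin lungs, and the highest value was replicate 3. Its difference was 2.79 ± 0.82 with all libraries and −0.91 ± 0.74, not called, without replicate 3. The gene whose groups did not overlap was Bpgm, at 26.9 to 33.2 CPM (median 31.2) in saline and 37.1 to 282 CPM (median 40.2) in bleomycin lungs. Skeletal muscle genes were 7 higher and 4 lower of 14, and 4 higher and 5 lower without bleomycin replicate 3. With the 12 libraries fitted alone they were 1 and 3, with a median of −0.37 against 0.64. That fit filtered genes anew, so its counts and median cover only the members it tested, which can be fewer than 14. Acta1, their actin, was at 0 to 0.467 CPM (median 0.128) in saline and 0.0779 to 21.2 CPM (median 0.239) in bleomycin lungs, with 21.2 CPM in replicate 3 and 18.3 in replicate 5 and at most 0.379 in the other bleomycin lungs. Without both of these libraries its difference of 5.32 ± 1.01 became −0.02 ± 1.29. Of 16 clock genes 5 fell and 1 rose (Bhlhe41, 0.59 ± 0.14), with Arntl and Npas2, which peak together in the daily cycle, lower without overlap by 0.74 and 1.05. Hours of collection are not given in the sources used here, and their part was not tested.

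**Figure D3:**
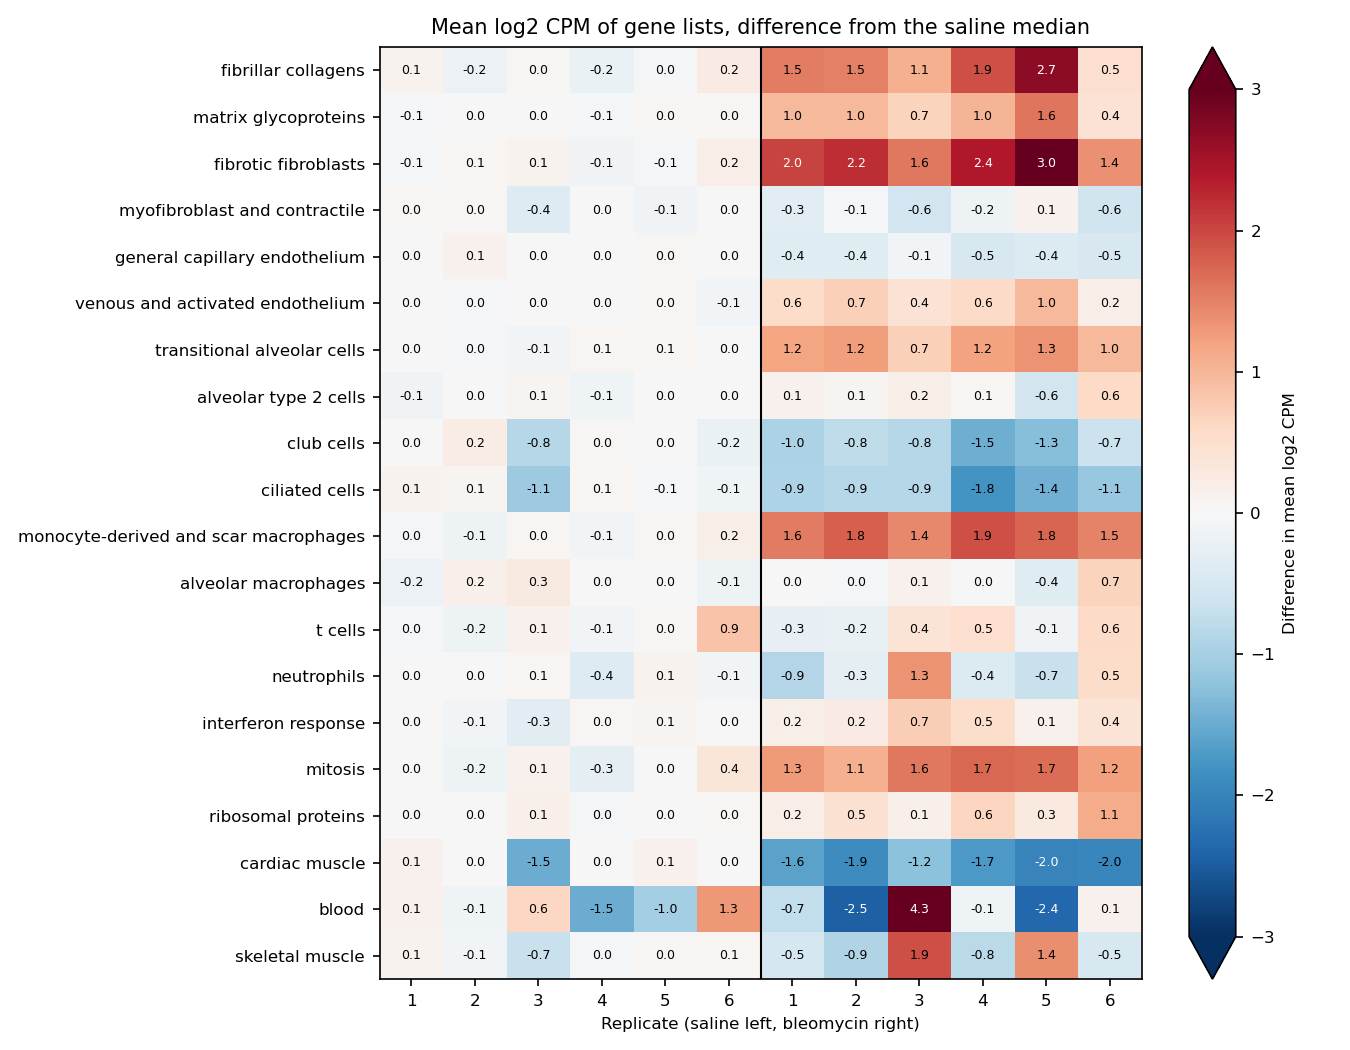
Mean log2 CPM of 20 gene lists in each of the 12 old lungs at day 14, drawn as the difference from the saline median. Columns are the 6 saline and the 6 bleomycin libraries by replicate number, red is higher and blue lower, on a scale capped at 3 log2 units. The monocyte-derived macrophage, mitosis and matrix rows are red in all 6 bleomycin lungs, whereas the alveolar macrophage row is mixed. Replicate 3 stands out for blood and replicates 3 and 5 for skeletal muscle.

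The same change was then measured in young lungs at day 14, which had their own saline controls and a higher dose. The bleomycin effect, taken with its sign, was higher in old lungs for 9 genes (0.0489%) and lower for 9 (0.0489%). A higher effect can be a larger rise or a smaller fall. With the 4 groups fitted alone edgeR called none, and 857 and 795 genes had an unadjusted p under 0.05, against 36 and 35 called with DESeq2 over all libraries. Without bleomycin replicate 6 of the old lungs edgeR also called none, with 774 and 641 at an unadjusted p under 0.05. The counts were 271 and 202 without old bleomycin replicate 1, 361 and 164 without replicate 3 and 298 and 157 without replicate 5, and between 0 and 42 without any other library. Opcml, an adhesion molecule of neurons, differed most, at −0.24 ± 0.23 in old and 1.5 ± 0.26 in young lungs, a difference of −1.73 ± 0.34 (adjusted p = 0.019). Slco2b1, an organic anion transporter, and Aldh9a1 also had lower effects in old lungs, by 0.74 and 0.34. Pstk, Psmg1 and Srsf3 had higher ones, by 0.67 ± 0.14, 0.65 ± 0.15 and 0.58 ± 0.12. No gene of the 94 lists was called. Col1a1 rose by 2.14 ± 0.29 in old and 2.07 ± 0.32 in young lungs, Trem2 by 3.25 ± 0.24 and 3.82 ± 0.28, and Spp1 by 3.33 ± 0.35 and 4.12 ± 0.40. Acta2 was at 0.03 ± 0.17 and 0.11 ± 0.19. A p that misses the threshold does not show that the effects are equal, and age and dose cannot be told apart.

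**Figure D4:**
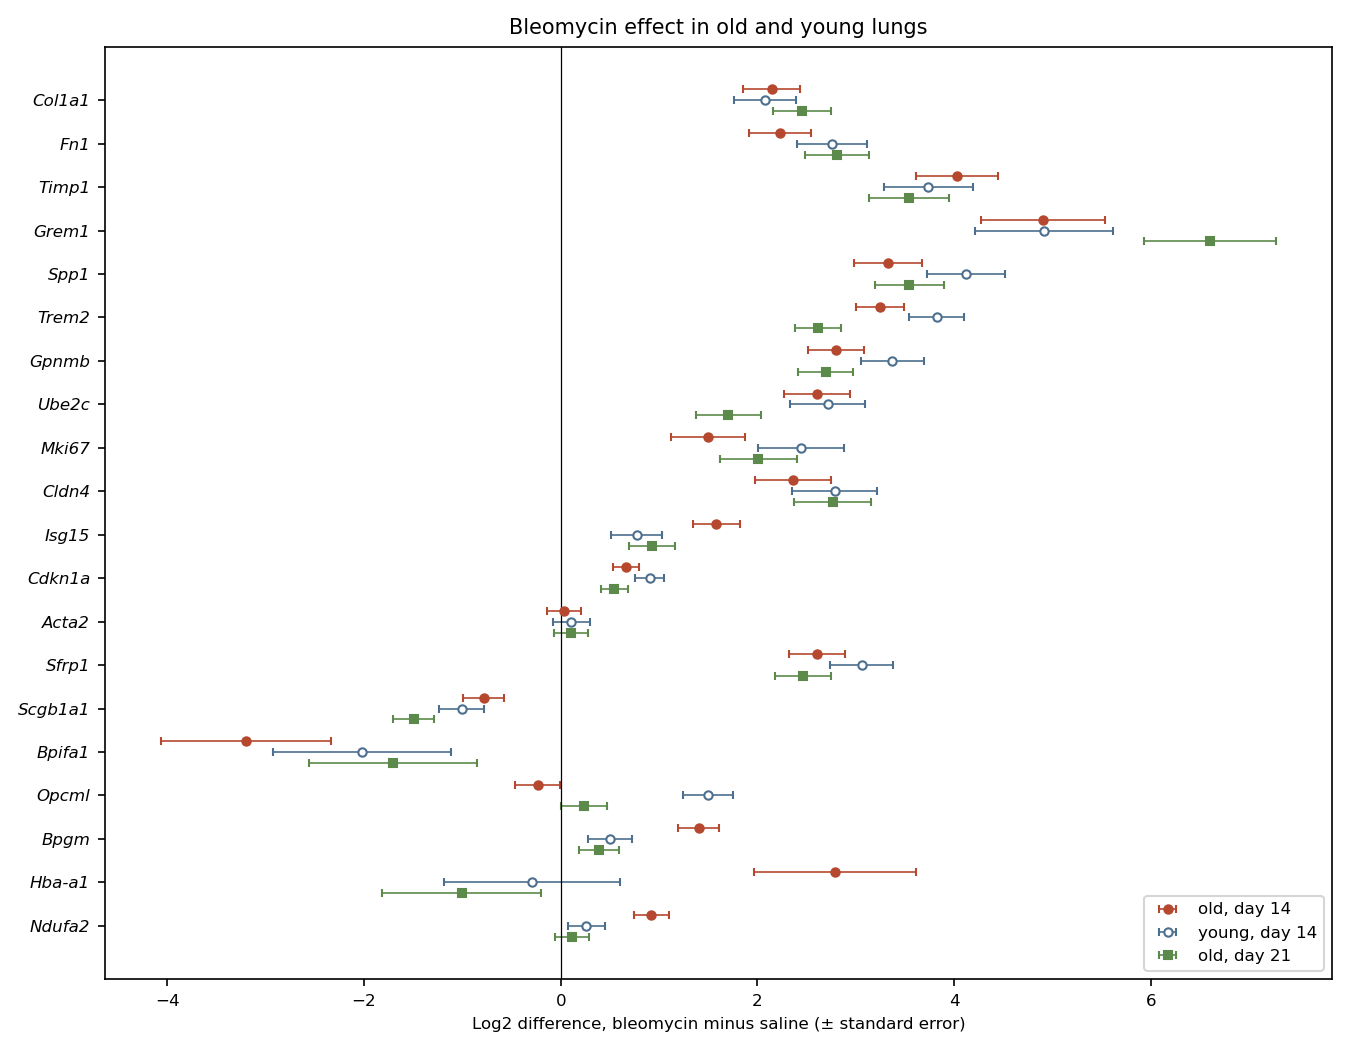
Log2 difference between bleomycin and saline with its standard error for 20 genes in old lungs at day 14 (filled circles), young lungs at day 14 (open circles) and old lungs at day 21 (squares). Each set was compared with its own saline lungs, and the genes drawn that were called for a difference were Opcml between ages and Hba-a1, Bpgm and the respiratory chain gene Ndufa2 between days.

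Between day 14 and day 21 in old lungs, the bleomycin effect was higher at day 14 for 1368 genes (7.44%) and lower for 867 (4.71%). Without bleomycin replicate 6 of day 14 these counts were 75 and 57, and with the 4 groups fitted alone 0 and 1, beside 2336 and 1377 genes at an unadjusted p under 0.05. The lower count rose to 1712, 1547 and 1539 without replicates 1, 3 and 5 of day 14 and was 1326 and 531 without bleomycin replicates 1 and 6 of day 21. The higher count was 824 and 792 without saline replicates 2 and 6 of day 21. Among the genes with the largest higher effect at day 14 were the blood genes Hbb-bt, Alas2, Hbb-bs, Hba-a2 and Hba-a1, and bleomycin replicate 3 of day 14 was their highest library. Without it these differences lay between −0.23 and 0.52 and none was called. Ribosomal proteins accounted for 15 of 26 members higher and oxidative phosphorylation for 14 of 26, the lists in which replicate 6 was highest. The largest lower effects were in Ighg2b and Derl3, of plasma cells, and in Adnp, Veph1, Cacna1h and Igsf9b, between −1.30 ± 0.40 and −2.94 ± 0.98. Col1a1 differed by 2.14 ± 0.29 at day 14 and 2.45 ± 0.29 at day 21, Trem2 by 3.25 ± 0.24 and 2.62 ± 0.24, Ube2c by 2.61 ± 0.34 and 1.70 ± 0.33, and Scgb1a1 by −0.78 ± 0.21 and −1.50 ± 0.21. No fibrillar collagen, mitosis or monocyte-derived macrophage gene was called for a difference between the days. In the basement membrane list the effect was lower at day 14 for 6 of 19 genes and higher for none. Bleomycin replicate 6 of day 14 was the lowest bleomycin lung of that day for 18 of the 19.

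Few genes separated the saline lungs at day 14 from lungs of untreated old mice. In all, 11 genes (0.0598%) were higher in saline and 20 (0.109%) lower, and fitted alone these groups gave 1 and 0. The 5 listed genes higher with saline were clock genes, among them Dbp at 2.01 ± 0.38 and Nr1d1 at 1.10 ± 0.26, with Nr1d2, Per3 and Tef, and Npas2 and Arntl were among the lower ones. Gzmm, Samd3 and Pim2 were lower by 2.06 and less, and untreated replicate 2 was the highest lung for all of them. Without it they were at 0.15, −0.21 and 0.04 and not called, and the counts were 3 and 4. Leaving out any other library gave 6 to 12 higher and 7 to 46 lower genes. Col1a1 was at 344 to 383 CPM (median 377) in untreated against 347 to 449.9 CPM (median 372) in saline lungs, and Scgb1a1 at 18459 to 25278 CPM (median 23084) against 12060.5 to 24808 CPM (median 19851).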

How the data were processed

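The authors deposited a table of raw read counts per gene for 137 lung libraries, in which the columns are named by the library. Per the labels' protocols, RNA was extracted from 20 mg of tissue with Qiazol and made into libraries with a TruSeq mRNA kit. The submitters' processing notes name bcl2fastq 2.20.0.422, FastQC 0.11.5, STAR 2.5.2 and 2.5.2b, featureCounts 1.5.1, RSEM 1.3.0 and the builds GRCm38, hg38 and GRCh38, with no roles. Strandedness, the annotation and the handling of reads that match several genes are not given in the sources used here, so a gene cannot be told apart from an overlapping antisense gene. Symbols and positions are from GENCODE M21 on GRCm38, which named 48434 of 48794 gene IDs.

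Counts were fitted with edgeR 4.0.16 in R 4.3.3 (TMM scaling, genes kept with filterByExpr, minimum count 10, minimum total 15, robust quasi-likelihood F test) over all 137 libraries and 26 groups of age, treatment and day, with 111 residual degrees of freedom. Of 36251 genes with a read 18396 were tested, and p-values were adjusted by Benjamini-Hochberg over these. A standard error is the log2 difference divided by the square root of its F. Libraries of the series held 14.9 to 31.0 M reads (M for mega), and the fit was tested on simulated data. No pair within the saline or within the bleomycin lungs of old mice at day 14 agreed within sampling noise. Lists were described by the members called and their median log2 difference, and by library as the mean log2 CPM of members with a prior count of 2, without a test.

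The members and the 94 gene lists were chosen with earlier results of these data known. The rule for named genes took the 15 largest changes each way among called genes without overlap and with an average log2 CPM over 1 (6 each way in the other comparisons), skipping predicted, clone-named and antigen-receptor genes (111 in the first comparison), and from each list its first 4 genes, the 4 smallest p-values each way and members whose call differed. Motifs were searched in RefSeq promoters on GRCm38.p6. Alternatives were DESeq2 1.42.0, RLE scaling, no filter beyond 1 read, the groups of a comparison alone, old libraries alone, and leaving out libraries singly or together. Some genes that the rule names are not reported here.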

Additional observations from a re-analysis of the deposited data

Results flagged for a closer look

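Within each group of 6 lungs, a library was singled out where its distance from the nearest other library took up a share of the group's whole range above the 95% critical value of Dixon's test for 6 values. Of 188 groups of list means 17 were singled out, and of 880 groups of named genes 70. Chance gives about 1 in 20 for independent, unselected groups of normal values. These groups are not such, as named genes were partly picked from the same data and lists share genes and libraries. The counts can therefore not be read against that rate. Values in the next paragraphs are log2 CPM (for lists the mean over members) with the median of the group.

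Saline replicate 3 was the lowest saline lung for the list means of myofibroblast and contractile at 5.98 (median 6.37), ciliated cells at 4.21 (median 5.3), mucous and airway defence at 2.41 (median 3.73), neuroendocrine and tuft cells at 0.49 (median 0.96), iron and heme handling at 5.18 (median 5.38), ion and water channels at 6.11 (median 6.29), cardiac muscle at 2.87 (median 4.36) and skeletal muscle at 0.3 (median 0.97). It was the highest for ribosomal proteins at 6.09 (median 5.94). Single genes with their lowest saline value there were Acta2 at 7.2 (median 7.69), Actc1 at 5.27 (median 6.62), Atp6v1b1 at 0.81 (median 2.44), Chad at 3.02 (median 4.28), Cldn4 at 1.52 (median 2.95), Cnn1 at 4.35 (median 5.33), Col4a6 at 4.97 (median 5.16), Col8a2 at 4.19 (median 4.91), Cyp2f2 at 10.27 (median 11.23), Dcdc2a at 3.15 (median 4.26), Dnah11 at 4.39 (median 5.54), Dnah9 at 4.81 (median 6.08), Duox2 at 0.21 (median 1.03), Foxj1 at 5.68 (median 6.88), Hamp at −1.11 (median 0.79), Hydin at 4.77 (median 6.16), Itprid1 at 2.84 (median 3.88), Krt13 at −2.42 (median −1.85), Muc5ac at −0.97 (median 1.02), Muc5b at 3.92 (median 6.08), Myh6 at 5.67 (median 7.76), Pigr at 5.68 (median 6.77), Ryr2 at 3.52 (median 5.07), Tagln at 7.18 (median 7.44), Tbata at 1.99 (median 3.11) and Wif1 at 2.29 (median 3.2). Dnah9, Dnah11, Hydin and Foxj1 among them are genes of cilia, and Myh6, Ryr2 and Actc1 of heart muscle. The same lung was the highest for Chrdl1 at 5.57 (median 5.08), Cthrc1 at 3.16 (median 2.63), Fzd4 at 7.73 (median 7.61), Hif1a at 6.49 (median 6.39) and Ltbp4 at 8.68 (median 8.38).

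Saline replicate 1 was highest for proteoglycans and hyaluronan at 3.7 (median 3.53) and replicate 2 for general capillary endothelium at 7.94 (median 7.81). Replicate 1 was lowest for Zeb1 at 6.99 (median 7.17). Replicate 2 also had the highest Epas1 at 12.13 (median 11.93) and mt-Nd5 at 11.3 (median 11.06) and the lowest Siglech at 0.13 (median 1.7). Saline replicate 4 was highest for circadian clock at 5.69 (median 5.44) and lowest for lymphatic endothelium at 4.3 (median 4.47), and its single genes were Mdm2 at 7.38 (median 7.02), Per3 at 6.58 (median 5.86), Psrc1 at 3.39 (median 2.89) and Tnxb at 8.19 (median 8.0). Saline replicate 6 was highest for T cells at 4.24 (median 3.38), and for the genes Camp at −0.86 (median −2.83), Cd34 at 7.52 (median 7.24), Cd3e at 3.85 (median 2.94), Col3a1 at 9.58 (median 9.23), Ifit2 at 5.58 (median 5.37) and Tnc at 5.25 (median 4.55).

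Among bleomycin lungs, replicate 3 was highest for general capillary endothelium at 7.73 (median 7.42) and monocytes at 6.06 (median 5.3), and for the genes Bpgm at 8.14 (median 5.33), Cdkn1b at 6.59 (median 6.34), Rsad2 at 7.54 (median 4.61) and Tek at 8.43 (median 8.06). Replicate 4 was lowest for bleomycin hydrolase and drug handling at 5.36 (median 5.83) and Ogn at 7.08 (median 7.6), and highest for Ccl8 at 6.92 (median 4.51) and Cd34 at 8.5 (median 8.05). Replicate 5 was highest for the fibroblast and matrix genes Cthrc1, Lum and Thbs4 and for Slco2b1. The values were Cthrc1 at 4.94 (median 3.54), Lum at 5.27 (median 3.95), Slc40a1 at 5.35 (median 4.39), Slco2b1 at 5.72 (median 5.16) and Thbs4 at 4.37 (median 3.03). It was lowest for Vpreb3 at 1.69 (median 2.66) and Xpc at 5.23 (median 5.54). Replicate 6 was lowest for C3ar1 at 4.67 (median 5.67), Igsf9b at −2.03 (median 1.26), Lrp5 at 6.46 (median 7.28), Muc5ac at −0.63 (median 0.82), Myh11 at 5.59 (median 6.96), Notch3 at 6.0 (median 7.3), Selp at 2.58 (median 3.99), Smad3 at 5.71 (median 6.25) and Spry4 at 5.81 (median 6.41), and highest for Igfbp6 at 8.01 (median 6.61) and Vtn at 4.08 (median 3.15).

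By edgeR's test of the difference itself, day 14 effects of bleomycin were unequal in old and young mice for Aldh9a1 by −0.34, Opcml by −1.73, Psmg1 by 0.65, Pstk by 0.67, Slco2b1 by −0.74 and Srsf3 by 0.58 (log2, old minus young). None of these calls was kept in the fit of the 4 groups alone or without old bleomycin replicate 6. Between day 14 and day 21 in old lungs the effect differed in Adnp by −1.42, Alas2 by 4.14, Cacna1h by −1.31, Derl3 by −1.80, Hba-a1 by 3.79, Hba-a2 by 3.88, Hbb-bs by 4.01, Hbb-bt by 4.25, Ighg2b by −2.94, Igsf9b by −1.30 and Veph1 by −1.31 (log2, day 14 minus day 21). None of the blood genes among them was called without bleomycin replicate 3 of day 14.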

How the results depend on the processing

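No paired analysis was possible because library numbers in the labels run on through all groups, with none in common. For old lungs at day 14, leaving out 1 library gave 4715 to 5551 higher and 4318 to 5333 lower genes, and the 12 libraries alone gave 3234 lower genes against 4869. Of 440 named genes, 387 kept their call and direction in all 19 alternatives. In at least 1 of them 34 called genes lost the call or turned, and 19 genes not called were called. The second set held Sftpc, Sftpa1, Tagln, Tcf21, F3, Krt19, Mdm2, Marco, Bmp4, Trp63, Adnp, Gzmm, Ighg2b, Pstk, Tef, Ankrd1, Fos, Scnn1a and Xbp1. Of 188 list counts 72 moved by over 1.5 times in at least 1 alternative, where a count of 1 or 2 moves so with 1 gene. With the 12 libraries alone the lower counts were 2 for proteoglycans, 4 for DNA repair, 4 for antioxidant genes, 5 for nerve genes and 0 for neuroendocrine genes. In the same fit 16 ribosomal genes were higher. That fit filtered genes anew, so a list can hold fewer tested members there.

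Without bleomycin replicates 3 and 5, the log2 differences turned for Acta1 (−0.02), Alas2 (−0.80), Hba-a1 (−0.63), Hba-a2 (−0.46), Hbb-bs (−0.24), Hbb-bt (−0.18), Krt13 (−0.08) and Ngp (−0.70). Without bleomycin replicates 3 and 6 and saline replicate 3, a choice made after seeing the data, they were −1.03 for Alas2, −0.38 for Camp, −1.06 for Hba-a1, −0.98 for Hba-a2, −0.61 for Hbb-bs, −0.55 for Hbb-bt, −0.30 for Krt13 and −1.87 for Ngp. Leaving out 1 library, the ranges were −1.07 to 3.57 for Alas2, −0.91 to 3.12 for Hba-a1, −0.74 to 3.16 for Hba-a2, −0.52 to 3.29 for Hbb-bs, −0.47 to 3.81 for Hbb-bt and −1.03 to 3.85 for Ngp. The negative end was without bleomycin replicate 3 in each.

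For the old against young effect, 9 higher and 9 lower genes became 36 and 35 with DESeq2, 0 and 0 with the groups alone, 1 and 2 with no filter beyond 1 read, 0 and 1 without the 3 libraries that stood apart and 1547 and 1075 without bleomycin replicates 3 and 5. Leaving out 1 library gave 0 to 361 higher and 0 to 202 lower. For day 14 against day 21, 1368 and 867 became 0 and 1 with the groups alone, 738 higher with no filter, 211 and 249 without the 3 libraries and 2602 and 2194 without replicates 3 and 5. Leaving out 1 library gave 75 to 1876 higher and 57 to 1712 lower. There Alas2 and Hba-a1 turned to −0.16 and −0.04 without the 3 libraries, with a range of −0.23 to 4.66 for Alas2 on leaving out 1 library.

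For saline against untreated, 11 and 20 became 1 and 0 with the groups alone, 5 and 11 with no filter and 12 lower without the 3 libraries. Leaving out 1 library gave 3 to 12 higher and 4 to 46 lower, with Gzmm at −2.33 to 0.15 and Pim2 at −1.53 to 0.04. The fits of the groups alone have fewer libraries to estimate the spread. The cause of their shifts and of the others was not tested. Depth, alike in the saline and bleomycin lungs, limits what can be said of genes under about 1 CPM.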

Other observations

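Further gene groups of the same 12 lungs are described here by the same counts, against 29.3% of all genes higher and 26.5% lower. Of the iron and heme genes 9 of 15 were higher and 1 lower, with a median log2 difference of 0.89. Blvrb, which reduces biliverdin from heme, rose by 1.0 ± 0.12, and Hamp, hepcidin, the hormone that closes the iron exporter, fell by 1.31. The exporter itself, Slc40a1, was not called (0.24 ± 0.19). Chemokine receptors were 8 of 23 higher and 4 lower. Ccr1 rose by 1.02 ± 0.21 and Ackr1 by 2.96 ± 0.41, whereas the scavenging receptor Ackr4 fell by 1.19, and Ccr4 was not called (0.30 ± 0.33). In the list of EGF family and insulin-like growth factor genes the counts were 7 of 19 higher and 9 lower. Igf2 and the binding protein gene Igfbp6 fell there by 0.72 and 0.82, as did Igfbp3.

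Genes of mechanical sensing through Hippo and integrins were 2 of 15 higher and 6 lower (median −0.15), and 4 and 5 without bleomycin replicate 6. Ankrd1, a common target of the co-activator Yap, ran from 22.6 to 51.9 CPM (median 36.8) in saline and from 41.05 to 67.7 CPM (median 51.7) in bleomycin lungs and was not called (0.50 ± 0.25). Amotl2 and Lats2, which restrain that pathway and are also its targets, fell by 0.45 and 0.39, and Itga5, the fibronectin receptor chain, rose by 0.86 ± 0.12. Cell junction genes moved both ways (8 of 25 higher and 9 lower). Gja1, a gap junction connexin, and Snai1, a repressor of epithelial genes, rose by 1.05 ± 0.12 and 1.17 ± 0.18, while Cdh2, N-cadherin, fell by 0.78, Zeb1 by 0.48 and the tight junction scaffold Tjp1 by 0.54.

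Vascular tone genes were 6 of 23 higher and 9 lower. Ptger4 and Ptger2, receptors of prostaglandin E2, rose by 1.28 ± 0.15 and 0.94 ± 0.13, and Bdkrb1, the inducible bradykinin receptor, by 1.96 ± 0.30. Ace, the enzyme that makes angiotensin II, was not called (−0.09 ± 0.10). Channels of ion and water transport were 1 of 16 higher and 7 lower (4 lower without bleomycin replicate 5). Cftr, the chloride channel, and Aqp4, a water channel, fell by 0.70 and 0.82, and Scnn1a, a subunit of the sodium channel that clears alveolar fluid, was not called (0.21 ± 0.14, and 0.32 and called without bleomycin replicate 6). Nerve and axon guidance genes were 3 of 21 higher and 8 lower (1 higher without bleomycin replicate 2 or 5 or saline replicate 2, 4 or 6). Sema7a, a semaphorin of leukocytes and fibroblasts, rose by 1.0 ± 0.17, and Ntn4, a netrin, fell by 0.42.

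Metabolic and stress lists moved both ways. In cholesterol synthesis the counts were 9 of 21 higher and 4 lower (2 lower without bleomycin replicate 6), with Cyp51 and Mvd at 0.76 ± 0.11 and 0.78 ± 0.13. In fatty acid oxidation they were 3 of 18 higher and 6 lower, with Ppargc1a, a coactivator of mitochondrial genes, lower by 0.82 and Cpt2 higher by 0.35 ± 0.07. The unfolded protein response was 5 of 24 higher and 3 lower (8 higher without bleomycin replicate 3, 1 lower without replicate 6), with Calr and Pdia3, folding helpers, at 0.35 ± 0.09 and 0.35 ± 0.07 and Xbp1 not called (0.16 ± 0.09, and 0.22 and called without bleomycin replicate 3). Hypoxia genes were 6 of 17 higher and 4 lower, with Ankrd37 at 2.51 ± 0.32 and Car9 at 0.97 ± 0.21. Immediate early and heat shock genes, which answer to handling of tissue, were 2 of 19 higher and 5 lower (3 lower without bleomycin replicate 6 or saline replicate 4), with Fosb and Jun lower by 1.5 and 0.46, Egr2 higher by 1.07 ± 0.28 and Fos not called (−0.60 ± 0.29, and −0.70 and called without saline replicate 6).

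Lists of rare cells were short, so their shares rest on few genes. Basal cell genes were 1 of 12 higher and 2 lower, with Aqp3 lower by 0.91 (−0.79 and not called without bleomycin replicate 5) beside Krt15 and Bcam higher by 0.41 ± 0.08. Neuroendocrine and tuft cell genes were 3 of 12 higher and 3 lower, shares near the background. Trpm5, a tuft cell channel, fell by 1.29, and Calca was not called (−0.16 ± 0.27). Genes of innate lymphoid and gamma-delta T cells were 4 of 15 higher, near the background share, and 2 lower. Among them Il1rl1, the interleukin-33 receptor, was at 0.59 ± 0.19 (0.44 and not called without bleomycin replicate 1). Gata3 was lower by 0.66. Of 5 genes listed for thymus and lymph node 1 rose (Cxcl13, 0.98 ± 0.36, and 0.67 and not called without bleomycin replicate 5). In the list of oesophagus, thyroid and other neighbouring tissue the counts were 2 of 8 higher and 1 lower. Without bleomycin replicate 6 this list had 3 lower, and without the 3 libraries that stood apart 0 higher and 3 lower. Krt4 and Krt13, keratins of squamous epithelium, rose by 2.66 ± 0.71 and 1.44 ± 0.58, but the Krt4 call was lost in 1 of 18 alternative analyses. Krt13 was at 0.16 without bleomycin replicate 3 and 1.29 without saline replicate 3 and not called in either case. In the same list Myh11 fell.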
